A study of Mus musculus with 2 samples.

Results

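The genes described here are the collagen chains outside the basement membrane network, taken as every gene whose symbol has the form of a collagen chain, except the type IV chains, Col7a1 and Col17a1. Of the 44 collagen rows in the feature list 36 remained, and all 36 had at least 1 unique molecular identifier (UMI, the tag that marks 1 captured transcript molecule) in the deposited tables, in which 26562 genes had a UMI. The chains were followed by cell class and library, with Col1a1, Col1a2 and Col3a1 given as the reference. Both groups were male C3H/HeN mice, treated from an age of 7 weeks and harvested at 9 weeks. The control group received vehicle and the AGA (androgenetic alopecia) model group received testosterone propionate (TP) at 0.5 mg per day under the skin. Dorsal skin of 15 mice was pooled in each group and gave 1 library per group, so no difference between TP and control could be set against a spread between animals, and no test or p-value is given. The group that also received a neutralizing antibody is not analysed here.

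Collagens are secreted or membrane proteins built from 3 chains wound into a triple helix, and a trimer can combine products of different genes. The fibril-forming types (I, II, III, V, XI, XXIV and XXVII) assemble the fibres of dermis, cartilage and other tissues, and type V and XI chains sit inside type I fibrils, where they limit fibril width. FACIT collagens (IX, XII, XIV, XVI, XIX, XX and XXII) lie along the surface of fibrils, type VI forms beaded filaments close to cells, and types VIII and X form networks. Multiplexins (XV and XVIII) stand at basement membrane zones although they are no part of the type IV network, and types XIII, XXIII and XXV are anchored in the cell membrane. In skin, dermal fibroblasts (DFs) make most of the fibres, whereas the dermal papilla at the base of the hair follicle and the contractile dermal sheath around it carry matrices of their own.

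The control library kept 39076 cells with a median of 2044 UMIs and the TP library kept 18542 cells with a median of 4699 UMIs. The libraries differed in the share of barcodes over the mitochondrial limit, which was 7.58% in control and 22.6% in TP, and they shared 303 barcode sequences, 189 of them among kept cells. Cell classes were named from marker genes and carry the ending "-like". The cells were 199 control and 684 TP DF-like, 4140 control and 1351 TP dermal papilla cell (DPC)-like and 192 control and 426 TP dermal sheath cup-like cells, and the unnamed clusters held 16065 control and 3557 TP cells. DF-like cells thus made up 0.509% of the control and 3.69% of the TP cells. All 8 DF markers were detected in DF-like cells and all 8 DPC markers in DPC-like cells of both libraries, but these lists had named the classes. Each list was also detected in full in the other class. The DPC list stood at 539 CPM in control against 718 CPM in TP in DF-like cells, and at 15054 and 15856 CPM in DPC-like cells. A level is given as CPM, the number of UMIs of a gene among 1000000 UMIs pooled from one class of cells in one library. The assay reads the end of each transcript, and levels were not divided by length. Whether intron reads were counted is not given in the sources used here. Long genes could hold more such reads, so levels of genes as unlike in length as Col6a1 (17253 bases), Col6a3 (77142) and Col23a1 (294247) stand side by side with that limit. Values in parentheses after a level or ratio are 95% intervals for counting error only. Some lists of markers of other cells moved between the libraries in the same direction in each of the 8 classes in which they were summed. Inner root sheath markers stood at 2188 to 3448 CPM in control and 355 to 634 CPM in TP, cycling markers at 754 to 1317 CPM in control and 171 to 1287 CPM in TP, cortex markers at 194 to 528 CPM in control and 40.4 to 121 CPM in TP and melanocyte markers, outside melanocyte-like cells, at 143 to 239 CPM in control and 23.3 to 65.7 CPM in TP, all lower in TP in every such class, and suprabasal IFE markers, higher in TP, at 1557 to 2879.9 CPM in control and 2294 to 4878 CPM in TP. Their part in the results was not tested. The name dermal sheath cup-like is uncertain. It rests on a marker score (the mean over the list of each marker's distance from its mean over all clusters, in SDs) of 1.71 against 1.56 for the DF list. None of its 5 markers was among the 10 leading genes of the cluster, headed by Gpc5, Dkk2 and Igfbp3, and Mylk4 was at 0. Summed, these markers stood at 2324 CPM in control against 2332 CPM in TP in the class, 2299 CPM in control against 3344 CPM in TP in DPC-like cells and 7317 CPM in control against 9750.3 CPM in TP in smooth muscle-like cells, whose own list shares Acta2. The name therefore stands below for that cluster and not for an established cell type.

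In the kept cells the 36 chains gave 121066 UMIs in control and 608106 in TP. Col1a1, Col1a2 and Col3a1, the chains of the main dermal fibres, gave 57797 and 508065 of these. The other 33 chains together stood at 601 CPM in control against 772 CPM in TP, a ratio of 1.28 (1.27 to 1.30), whereas the 3 reference chains stood at 549 and 3918 CPM. In control, 66.8% of the UMIs of the 33 chains lay in DPC-like cells and 4.99% in DF-like cells. In TP these shares were 35.8% and 32.4%. Of the UMIs of the reference chains, DF-like cells held 49.9% in control and 91.1% in TP. Sums over a whole library do not tell more cells of a class from a higher level within it. Within DF-like cells the ratio of CPM was 1.69 (1.67 to 1.71) for the reference chains and 1.08 (1.04 to 1.12) for the 33 others.

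**Figure D1:**
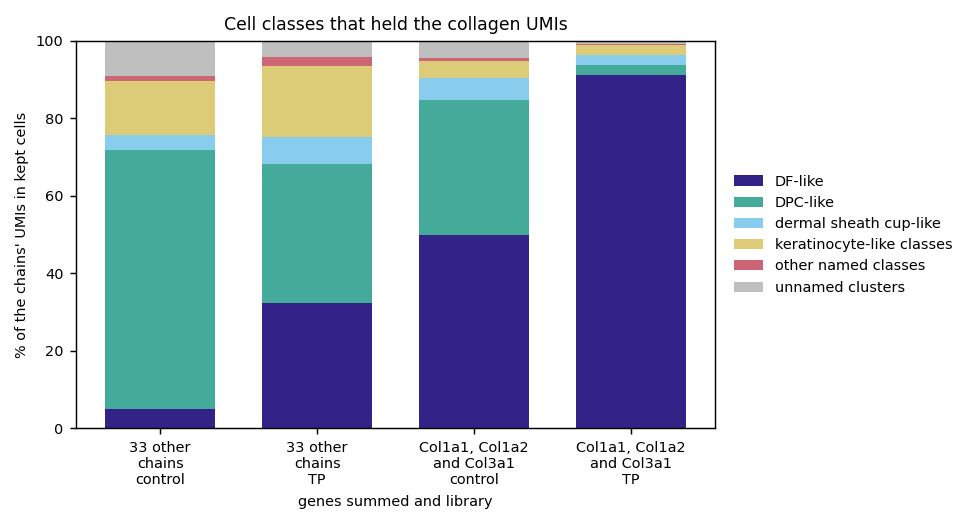
Share of collagen UMIs held by each group of cell classes (y axis, percent of the chains' UMIs in kept cells), for the 33 chains beyond Col1a1, Col1a2 and Col3a1 (left pair of bars) and for these 3 reference chains (right pair), in control and TP. DPC-like cells held the most UMIs of the 33 chains in both libraries, 66.8% in control and 35.8% in TP, and DF-like cells the most UMIs of the reference chains.

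Of the 36 chains, 32 had at least 50 UMIs over both libraries in kept cells, the minimum set for a comparison. The 4 below it were Col2a1 of cartilage (9 UMIs in control and 31 in TP), Col6a4 (14 and 34), Col9a2 (8 and 20) and Col10a1 of hypertrophic cartilage (20 and 7). The 32 others did not share 1 home. Among the 15 named classes with at least 50 cells in each library, 14 chains had their highest level in DF-like cells of the control, 7 in DPC-like, 5 in dermal sheath cup-like, 2 in smooth muscle-like, 2 in outer bulge-like and 1 each in lymphocyte-like and melanocyte-like cells. The intervals of the highest and second class did not overlap for 22 of the 32 chains in control and 23 in TP. For 23 chains the highest class was the same in both libraries.

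**Figure D2:**
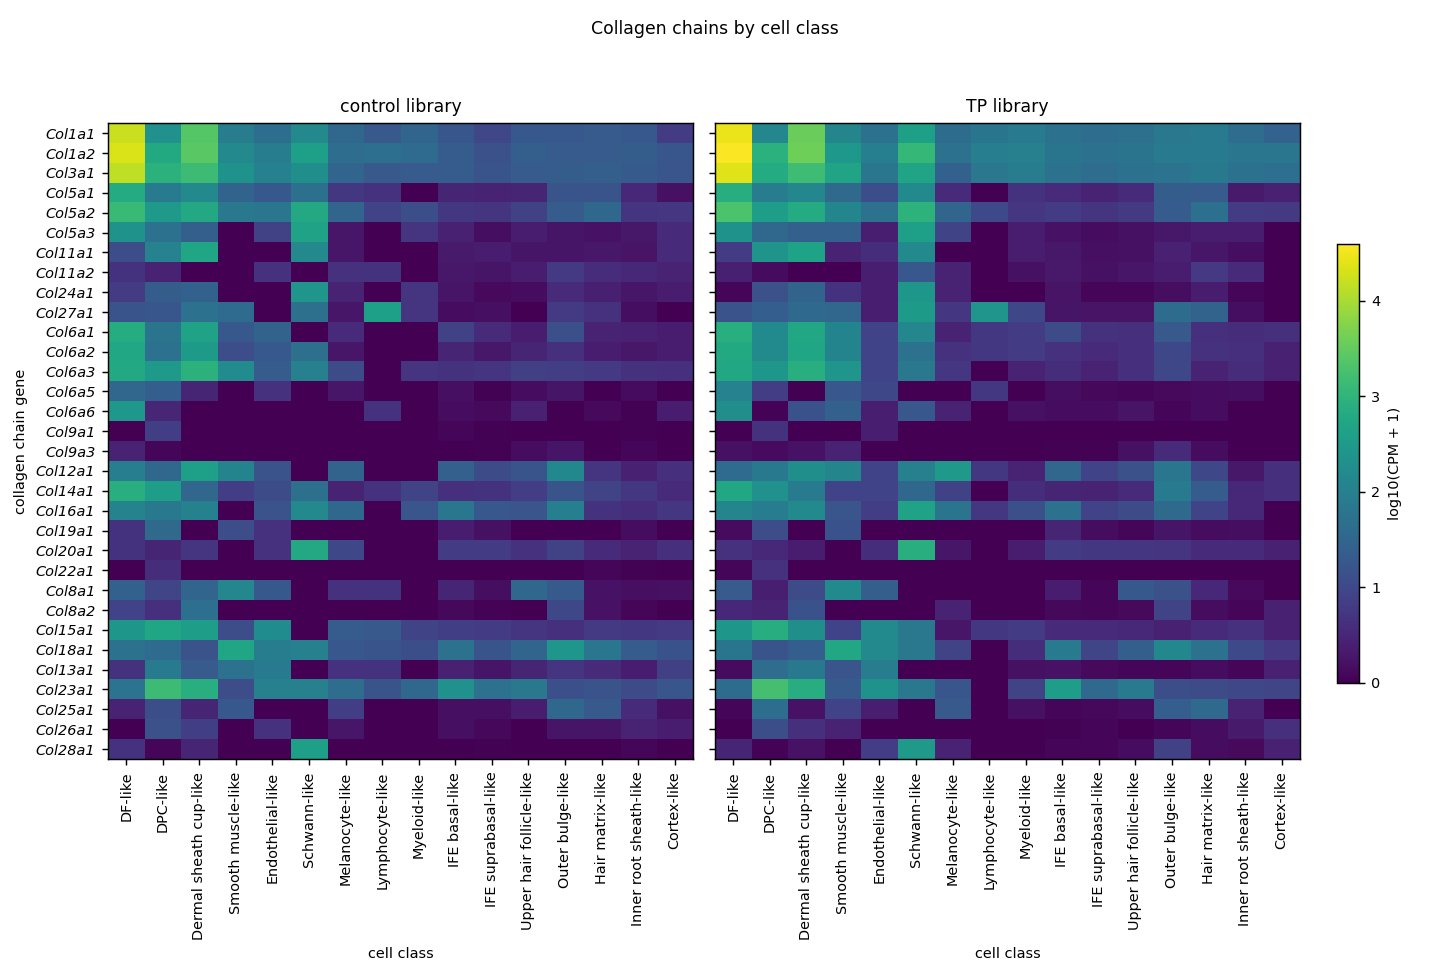
Level of each collagen chain with at least 50 UMIs (rows, grouped by family) in each named cell class (columns), as log10(CPM + 1), in the control library (left) and the TP library (right). Col1a1 to Col5a2 at the top, Col6a1 and Col6a2 are brightest in DF-like cells, Col6a3 in dermal sheath cup-like cells, Col23a1 and Col15a1 in DPC-like cells, Col27a1 in lymphocyte-like cells and, in TP, Schwann-like cells, while Col20a1 and Col28a1 stand out in the 13 control and 24 TP Schwann-like cells, which were not ranked.

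Among the fibril-forming chains, Col5a1, which supplies a type V chain of fibril cores, was highest in DF-like cells, at 664 CPM (95% interval 597 to 737) in control against 732 CPM (708 to 755) in TP, above dermal sheath cup-like cells at 144 CPM in control against 133 CPM in TP. Col5a2, the partner of Col5a1, also led in DF-like cells, at 1293 CPM in control against 2005 CPM in TP, and stood at 310.0 CPM in control against 383 CPM in TP in DPC-like cells. Col11a1, a type XI chain known from cartilage, had 11.2 CPM in control against 5.66 CPM in TP in DF-like cells. It was highest in dermal sheath cup-like cells, at 517 CPM (95% interval 456 to 584) in control against 466 CPM (432 to 502) in TP, with DPC-like cells second at 110.4 CPM in control against 236 CPM in TP. Col5a1 and Col5a2 were thus highest in another class than Col11a1. Col24a1 was at 26.1 CPM in control against 28.3 CPM in TP in dermal sheath cup-like cells and 21.5 CPM in control against 12.9 CPM in TP in DPC-like cells, and Col11a2 reached no more than 4.95 CPM in any of the 15 classes of the control. Col27a1, a fibril-forming chain of cartilage, was highest in lymphocyte-like cells, at 400.3 CPM (95% interval 329 to 483) in control against 252 CPM (189 to 328) in TP. It was the only chain with at least 50 UMIs in lymphocyte-like cells and did not differ 2-fold, against 5.13% of genes higher and 2.27% lower there. Its UMIs lay in 71 of 178 control and 29 of 89 TP lymphocyte-like cells, with at most 5 in a cell. After each cell was thinned to 1000 UMIs, 30.8% of 159 control cells and 15.5% of 84 TP cells had a Col27a1 UMI, against 0.0308% and 0.110% of inner root sheath-like cells, an epithelial class of the follicle (median depths before thinning 1436 and 2052 UMIs in lymphocyte-like, 1832 and 3854 in inner root sheath-like cells). The class joined a subcluster led by T cell receptor genes such as Trdc (149 control and 48 TP cells) and one led by Gzmc (29 and 41 cells). Its 6 lymphocyte markers stood at 8075 CPM in control against 5730.3 CPM in TP, the 6 suprabasal IFE markers at 2247 CPM in control against 4878 CPM in TP and the 6 inner root sheath markers at 3000.2 CPM in control against 634 CPM in TP, and their part in the Col27a1 values was not tested.

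By class as a whole, the type VI genes divided by chain. In TP this order did not hold for DSC1, a subcluster of the dermal sheath cup-like class described below. There Col6a1 and Col6a2 also stood above their levels in the DF-like class. Col6a1 and Col6a2, which supply the alpha 1 and alpha 2 chains of the common trimer, were highest in DF-like cells, Col6a1 at 707 CPM (95% interval 638 to 782) in control against 789 CPM (765 to 814) in TP and Col6a2 at 577 CPM in control against 613 CPM in TP. Col6a3, the large alpha 3 chain of that trimer, was highest in dermal sheath cup-like cells, at 914 CPM (95% interval 832 to 1002) in control against 789.7 CPM (745 to 836) in TP, above DF-like cells at 610.1 CPM in control against 553 CPM in TP. In DPC-like cells Col6a3 stood at 309.6 CPM in control against 268 CPM in TP, whereas Col6a1 was at 57.1 CPM in control against 160.2 CPM in TP. Per UMI of Col6a3 there were 0.185 UMIs of Col6a1 in control DPC-like cells (0.170 to 0.201) and 1.16 in control DF-like cells (0.997 to 1.35), so the chain mix of the DPC-like cells held less Col6a1 for its Col6a3. Of Col6a5 and Col6a6, which can take the place of alpha 3, Col6a6 was highest in DF-like cells, at 283 CPM in control against 189 CPM in TP. Col6a5 stood at 31.6 CPM (95% interval 18.4 to 50.6) in control against 110.1 CPM (101 to 119.6) in TP in DF-like cells, above the other classes in TP. Its control interval overlapped that of DPC-like cells (22.9 CPM, 20.2 to 25.8), and without the 1 control cell with 6 UMIs it was at 20.5 CPM in DF-like cells. In control, 83.6% of the Col6a5 UMIs lay in DPC-like cells, and 70.4% of the Col6a6 UMIs lay in DF-like cells.

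Col6a1 (chr10:76708792-76726044) and Col6a2 (chr10:76595756-76623630) lie on chromosome 10 and Col6a3 (chr1:90766860-90844001) lies on chromosome 1, all in RefSeq coordinates of GRCm38.p6, the mm10 build of the files. Their proximal promoters are shown because Col6a1 and Col6a2 moved together between the libraries and Col6a3 did not move with them in DPC-like cells. Each line gives the 150 bases before the listed RefSeq start, 5′ to 3′ on the strand of the gene, and for Col6a2 the start that lies farthest upstream of the 2 listed. The start listed for Col6a3 lies inside the span of the gene, so that the last 30 of its 150 bases overlap that span and only the 120 before it are shown.
Col6a1, chr10:76726045-76726194, minus strand: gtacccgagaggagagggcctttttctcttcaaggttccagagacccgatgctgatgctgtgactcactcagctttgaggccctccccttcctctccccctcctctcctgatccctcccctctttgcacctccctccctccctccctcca
Col6a2, chr10:76623631-76623780, minus strand: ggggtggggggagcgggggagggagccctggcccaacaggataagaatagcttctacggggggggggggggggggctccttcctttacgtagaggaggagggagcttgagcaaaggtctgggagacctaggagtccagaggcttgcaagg
Col6a3, chr1:90844002-90844121, minus strand: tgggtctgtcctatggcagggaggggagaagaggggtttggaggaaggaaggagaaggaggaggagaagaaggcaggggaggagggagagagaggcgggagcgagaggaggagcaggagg
The TATA-box motif TATAAA, the CCAAT box and the GC-box motif GGGCGG, searched on both strands, would be in capitals and none occurred in these 3 stretches of 150 bases. Over 27025 RefSeq promoters of the same length they occurred in 8.08%, 25.3% and 29.0%, and in 2, 4 and 12 of the 25 collagen chains with at least 50 UMIs that have an entry. G and C made up 60.0%, 64.7% and 62.7% of the bases, against a median of 54.0% over all these promoters.

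Of the FACIT chains, Col14a1, which coats fibrils of the dermis, was highest in DF-like cells, at 807 CPM (95% interval 733 to 887) in control against 538 CPM (518 to 558) in TP, and second in DPC-like cells at 374 CPM in control against 207 CPM in TP. Col12a1, its close relative at fibril surfaces under tension, followed another order. In control it was highest in dermal sheath cup-like cells (397 CPM, 344 to 456), then in outer bulge-like cells (138 CPM, 118 to 160.5) and smooth muscle-like cells (120.4 CPM, 74.5 to 184), the last 2 with overlapping intervals. Col16a1 was spread over the DF-like (112 CPM in control against 121 CPM in TP), dermal sheath cup-like (104 CPM in control against 152 CPM in TP) and outer bulge-like cells (96.6 CPM in control against 38.0 CPM in TP). Col19a1, Col9a1 and Col22a1 were DPC chains of low level in control. Col19a1 stood at 38.5 CPM there, with 91.4% of its UMIs in DPC-like cells, and the shares for Col9a1 and Col22a1 were 87.7% and 89.5%. Col20a1 stood in the 13 control and 24 TP Schwann-like cells at 588 CPM in control against 774 CPM in TP (12 and 46 UMIs), and Col9a3 had 58 UMIs in all. Col28a1, a collagen known from Schwann cells of nerves, had 8 of its 22 control UMIs and 18 of its 98 TP UMIs in these cells, and Col5a3 reached 441 CPM in control against 387 CPM in TP there. Col27a1 had 1 UMI in control and 19 UMIs in TP in these cells, at 49.0 CPM in control against 319.6 CPM in TP. With so few Schwann-like cells these are values without a ranking.

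The chains anchored in membranes were found in papilla, follicle, vessel and epidermal classes. Col23a1, a transmembrane collagen, was the chain beyond the reference with the most UMIs (21116 in control and 24636 in TP), and was highest in DPC-like cells, at 1407 CPM (95% interval 1385 to 1428) in control against 1774 CPM (1745 to 1803) in TP. Dermal sheath cup-like cells came second, at 782 CPM in control against 741 CPM in TP, and basal cells of the interfollicular epidermis (IFE) reached 215 CPM in control against 369 CPM in TP, while DF-like cells had 55.8 CPM in control against 40.4 CPM in TP. Thinned to 1000 UMIs, 65.7% of 3791 control cells and 76.5% of 1266 TP cells had a Col23a1 UMI in the DPC-like class, against 0.970% and 0.883% in inner root sheath-like cells (median depths 2428 and 5112 UMIs in DPC-like cells, where 80.9% and 92.5% of cells had one before thinning). Col13a1 stood at 74.0 CPM in control against 43.2 CPM in TP in DPC-like cells and 73.6 CPM in control against 84.0 CPM in TP in endothelial-like cells, and Col25a1 had its highest control level in outer bulge-like cells (33.9 CPM) and in DPC-like cells of TP (45.4 CPM). The multiplexin Col15a1 was highest in DPC-like cells, at 519.6 CPM (95% interval 507 to 533) in control against 741 CPM (723 to 760.3) in TP. Its relative Col18a1, the source of endostatin, was highest in smooth muscle-like cells, at 522 CPM in control against 575 CPM in TP, with outer bulge-like cells at 260.1 CPM in control against 139.7 CPM in TP. Col8a1 of the type VIII network shared the smooth muscle-like class, at 132 CPM in control against 152 CPM in TP, and reached 35.1 CPM in control against 17.7 CPM in TP in upper hair follicle-like cells, whereas Col8a2 was highest in dermal sheath cup-like cells of the control, at 46.1 CPM in control against 13.5 CPM in TP. Col26a1 stood at 12.9 CPM in control against 11.8 CPM in TP in DPC-like cells, with an interval in control that overlapped that of dermal sheath cup-like cells.

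The first comparison asked which chains differed between the TP and control libraries as a whole. A chain was counted as different where the CPM, with 1 UMI added, differed at least 2-fold. Of 32 chains 10 were higher in TP, against 8.5% of all 17546 genes tested, and 5 were lower, against 10.6%. The median log2 ratio was 0.42 over the chains and -0.23 over all genes. Higher were the reference chains (Col1a1 9.03-fold, Col1a2 7.76-fold and Col3a1 5.15-fold), Col5a1, Col5a2, Col6a1, Col6a2, Col6a6, Col27a1 and Col28a1. Col6a2 stood at 11.4 CPM in control against 42.8 CPM in TP, a ratio of 3.77 (3.54 to 4.01), and Col6a6 at 2.05 CPM in control against 8.08 CPM in TP, a ratio of 3.94 (3.40 to 4.58). Lower were Col9a1, Col13a1, Col19a1, Col24a1 and Col26a1, of which Col19a1 stood at 4.65 CPM in control against 1.36 CPM in TP, a ratio of 0.292 (0.244 to 0.348), and Col13a1 at 12.8 CPM in control against 4.77 CPM in TP, a ratio of 0.373 (0.338 to 0.410).

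The libraries also differed in their shares of cells of each class. Among the 15 ranked classes, 9 of the 10 higher chains were highest in DF-like cells of the control and 4 of the 5 lower chains in DPC-like cells. Col28a1, counted among the 9, stood at only 3.72 CPM (0.451 to 13.4) in DF-like cells of the control. Schwann-like cells, which were not ranked, held 36.4% of its control UMIs. DPC-like cells made up 10.6% of control and 7.29% of TP cells. When every cluster was given its share of the control UMIs in both libraries, 2 chains were higher (Col9a3 and Col28a1) and 2 lower (Col9a1 and Col19a1), where 582 of all 17546 genes were higher and 546 lower, and the log2 ratio of Col6a6 turned from 1.97 to -0.56. Barcodes over the mitochondrial limit held 183 CPM of the 33 chains in control and 321 CPM in TP. Scaled by edgeR's TMM factors, which shift the median of all genes from -0.23 to 0.02, 12 chains were higher and 3 lower, beside 2055 and 1073 of all genes.

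**Figure D3:**
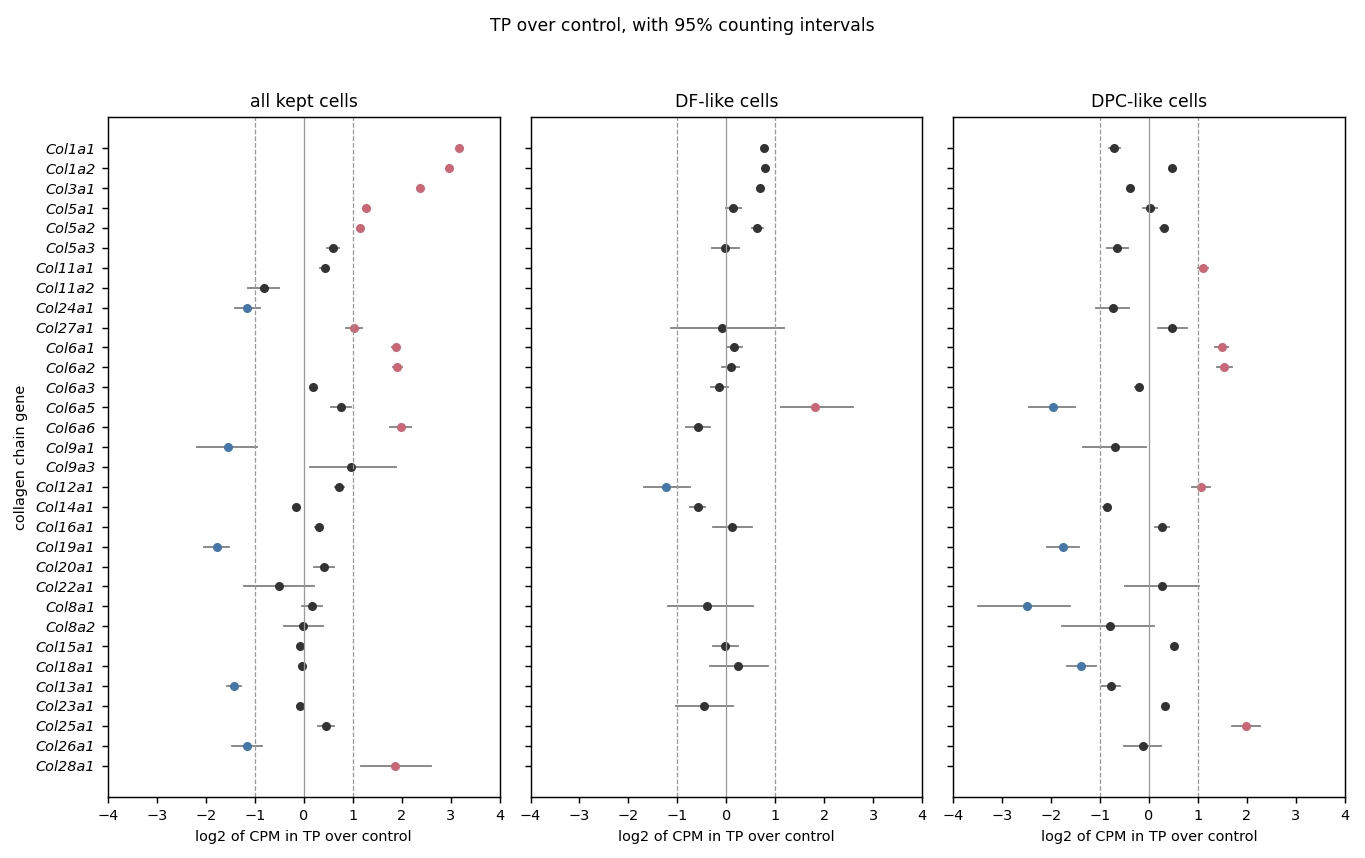
Ratio of TP over control (x axis, log2 of the CPM ratio) for each chain with at least 50 UMIs in all kept cells (left), DF-like cells (middle) and DPC-like cells (right). Points are the ratio and bars its 95% counting interval, with chains at least 2-fold higher in TP in red and lower in blue. The red points for Col1a1, Col1a2 and Col3a1 in all cells lie inside the dashed 2-fold lines in DF-like cells, where Col6a5 alone is red and Col12a1 alone is blue, and Col6a1, Col6a2 and Col25a1 are red in DPC-like cells.

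The second comparison asked whether DF-like cells themselves differed. Of 19 chains tested 1 was higher in TP (Col6a5), against 3.12% of 9258 genes, and 1 was lower (Col12a1), against 11.2%. The share of lower genes depended on the minimum count. With at least 200 UMIs, which Col6a5 and Col12a1 also had, 17 chains were tested. Of the 4564 genes then tested 151 were higher and 221 lower. Col6a5 stood at 31.6 CPM in control against 110.1 CPM in TP (17 and 564 UMIs), a ratio of 3.48 (2.16 to 6.02). Its UMIs came from 11 of 199 control and 133 of 684 TP cells, and 6 of the control UMIs came from 1 cell. Thinned to 1000 UMIs, 1.99% of 151 control cells and 6.35% of 646 TP cells had a Col6a5 UMI, with overlapping intervals (0.412 to 5.70% and 4.59 to 8.51%). Among the subclusters of DF-like cells, numbered DF0 to DF6, it was at 27.7 CPM in control against 298 CPM in TP (2 and 271 UMIs) in DF2, led by Agt, Gdf10 and Car3, and at 94.6 CPM in control against 87.7 CPM in TP (14 and 199 UMIs) in DF0, led by Cthrc1, C6 and Tnmd. Most of its control UMIs thus lay in DF0, and DF2 held the most in TP.

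Col12a1 stood at 91.1 CPM in control against 39.1 CPM in TP (49 and 200 UMIs) in DF-like cells, a ratio of 0.429 (0.312 to 0.598). Most of its TP UMIs lay in DF3, a subcluster led by Angptl7, Sfrp4 and Fmod, where it was at 279.8 CPM in control against 259.7 CPM in TP (22 and 130 UMIs), without a fall of 2-fold. DF6, led by Cdh6, which also led a cluster of inner root sheath-like cells, had 156 CPM in control against 33.1 CPM in TP (16 and 4 UMIs). Without DF6 and the shallow DF1 the log2 ratio of Col12a1 was -1.16 instead of -1.24, and with the subclusters at their control shares it was -0.79. It also missed the 2-fold limit with cells of at most 5% mitochondrial counts (-0.96), with TMM (-0.86) and as the mean over cells of ln(counts per 10000 + 1) (-0.71), and after thinning it fell below the minimum of 50 UMIs. In DF-like cells the 6 inner root sheath markers stood at 2405 CPM in control against 387 CPM in TP, and the 6 outer bulge markers at 1068 and 1509.6 CPM, with none of either list at 0. Their part in this difference was not tested.

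Within DF-like cells the main fibre chains were higher in TP by less than 2-fold. Col5a2 stood at 1293 CPM in control against 2005 CPM in TP (695 and 10268 UMIs), a ratio of 1.55 (1.44 to 1.68), near the ratios of 1.70, 1.73 and 1.60 of Col1a1, Col1a2 and Col3a1. Col5a1 was at a ratio of 1.10 (0.988 to 1.23) and Col5a3 of 0.979 (0.810 to 1.19), both with intervals that include 1. The trimer chains Col6a1, Col6a2 and Col6a3 had ratios of 1.12 (1.00 to 1.24), 1.06 (0.946 to 1.20) and 0.906 (0.808 to 1.02). Col6a6 and Col14a1 were lower without reaching 2-fold, at 0.667 (0.562 to 0.797) and 0.666 (0.602 to 0.739), and Col14a1 was unevenly spread, at 2378 CPM in control against 1640.0 CPM in TP in DF3 and 359.6 CPM in control against 114 CPM in TP in DF2. The 33 chains summed to 5868 CPM in control against 6329.7 CPM in TP DF-like cells, a ratio of 1.08 (1.04 to 1.12), against 1.69 for the reference chains. Scaled by TMM, 5 chains (Col1a1, Col1a2, Col3a1, Col5a2 and Col6a5) were at least 2-fold higher and 0 lower, beside 725 higher and 384 lower of all 9258 genes, whose median then moved from -0.30 to 0.09. Without DF1 and DF6 the log2 ratios of Col1a1, Col1a2, Col3a1 and Col5a2 were 0.36, 0.36, 0.29 and 0.32, instead of 0.76, 0.79, 0.68 and 0.63.

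In DPC-like cells more chains differed. Of 27 tested 5 were higher in TP (Col6a1, Col6a2, Col11a1, Col12a1 and Col25a1), against 3.79% of 12821 genes, and 4 were lower (Col6a5, Col8a1, Col18a1 and Col19a1), against 8.49%. Col6a1 stood at 57.1 CPM in control against 160.2 CPM in TP (663 and 1312 UMIs), a ratio of 2.80 (2.55 to 3.08). Col6a2 stood at 51.1 CPM in control against 149 CPM in TP (593 and 1220 UMIs), a ratio of 2.91 (2.64 to 3.22), whereas Col6a3, the third chain of the trimer, stood at 309.6 CPM in control against 268 CPM in TP (3593 and 2193 UMIs), a ratio of 0.865 (0.820 to 0.912). Per UMI of Col6a3, Col6a1 thus went from 0.185 to 0.598 UMIs and Col6a2 from 0.165 to 0.556. Thinned to 1000 UMIs, 5.12% of 3791 control cells and 12.5% of 1266 TP cells had a Col6a1 UMI, against 0.169% and 0.221% of inner root sheath-like cells, and before thinning the DPC-like shares were 12.2% and 41.5%.

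Col6a1 and Col6a2 stood past 2-fold with, and just under it without, 1 subcluster of DPC-like cells, DPC6. Its marker score was 1.90 for the DPC list and 1.50 for the dermal sheath cup list. DPC6, led by Adamts18 and Lhfpl3, had 9 control and 241 TP cells and held Col6a1 at 271 CPM in control against 337 CPM in TP (8 and 600 UMIs) and Col6a2 at 203 CPM in control against 326 CPM in TP (6 and 580 UMIs). Without DPC6 the log2 ratios were 0.97 for Col6a1 and 0.98 for Col6a2, just under the limit of 1, and with the subclusters at their control shares 0.66 and 0.66. Within the larger subclusters Col6a1 was also higher in TP, at 34.0 CPM in control against 58.8 CPM in TP in DPC0 (led by Cdh22 and Spry1), 104 CPM in control against 132 CPM in TP in DPC1 (led by Sfrp2 and Sostdc1) and 42.5 CPM in control against 124 CPM in TP in DPC2 (led by Ppm1h and Cacna2d3). Col6a3 was lower in DPC1, at 241 CPM in control against 147 CPM in TP, and about level in DPC2, at 254 CPM in control against 256 CPM in TP. Per UMI of Col6a3, DPC6 had 1.33 UMIs of Col6a1 in control (0.406 to 4.66) against 0.958 in TP (0.855 to 1.07). In DPC0 these values were 0.0710 (0.0588 to 0.0850) and 0.137 (0.106 to 0.175).

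**Figure D4:**
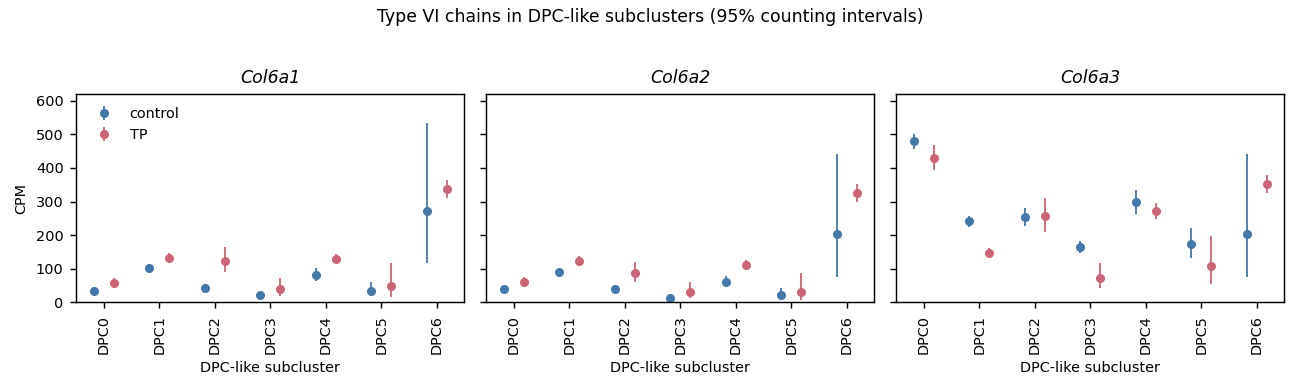
Level of Col6a1, Col6a2 and Col6a3 (y axis, CPM) in the 7 subclusters of DPC-like cells, in control (blue) and TP (red). Bars are 95% counting intervals. Col6a1 and Col6a2 are highest in DPC6, which had 9 control and 241 TP cells and therefore a wide interval in control, and Col6a3 is highest in DPC0.

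The other higher chains stayed past 2-fold without DPC6. Col11a1 stood at 110.4 CPM in control against 236 CPM in TP (1281 and 1934 UMIs), a ratio of 2.14 (1.99 to 2.30), with a log2 ratio of 1.07 without DPC6 and 0.88 with the subclusters at their control shares. Col25a1, a neuronal and membrane-anchored collagen, stood at 11.5 CPM in control against 45.4 CPM in TP (134 and 372 UMIs), a ratio of 3.93 (3.22 to 4.83), in 111 of 4140 and 200 of 1351 cells. In the DPC-like cluster led by Adgrb3 (1807 control and 1040 TP cells) it was at 16.6 CPM in control against 52.8 CPM in TP. In the DPC-like cluster led by Ndnf (2182 and 264 cells) it was at 5.79 CPM in control against 7.72 CPM in TP (31 and 10 UMIs). The part of these cell shares in the ratio was not tested. Col12a1 stood at 34.7 CPM in control against 72.3 CPM in TP (403 and 592 UMIs), a ratio of 2.08 (1.83 to 2.37), and was higher in TP in DPC0 (41.8 CPM in control against 134 CPM in TP) and DPC1 (36.7 CPM in control against 89.1 CPM in TP). With cells limited to 5% mitochondrial counts Col12a1 was at a log2 ratio of 1.00.

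Of the lower chains in DPC-like cells, Col19a1 stood at 38.5 CPM in control against 11.5 CPM in TP (447 and 94 UMIs), a ratio of 0.298 (0.236 to 0.373), and was lower in DPC0 (29.5 CPM in control against 12.7 CPM in TP), DPC1 (47.4 CPM in control against 18.8 CPM in TP) and DPC2 (94.7 CPM in control against 20.2 CPM in TP). Col18a1 stood at 38.8 CPM in control against 14.9 CPM in TP (450 and 122 UMIs), a ratio of 0.384 (0.312 to 0.470). Col6a5, higher in DF-like cells, was lower here, at 22.9 CPM in control against 5.86 CPM in TP (266 and 48 UMIs), a ratio of 0.256 (0.184 to 0.349). The free RNA of DF-like cells, scaled on Col3a1 as if all Col3a1 of the DPC-like cells came from it, would give at most 22.6 of the 266 control and 26.6 of the 48 TP UMIs of Col6a5. The part of free RNA in these counts was not tested. Col8a1 stood at 8.19 CPM in control against 1.46 CPM in TP (95 and 12 UMIs), a ratio of 0.179 (0.0893 to 0.327), and 6 of its TP UMIs came from 1 cell. Of the abundant DPC chains, Col23a1 was at a ratio of 1.26 (1.23 to 1.29), Col15a1 of 1.43 (1.38 to 1.48) and Col14a1 of 0.554 (0.524 to 0.586), and Col13a1 of 0.584 (0.514 to 0.662), none of them at 2-fold. Col13a1 was 187 CPM in control against 107 CPM in TP in DPC0 and 6.98 CPM in control against 8.18 CPM in TP in DPC1, and Col14a1 was 648 CPM in control against 185 CPM in TP in DPC1. Of the markers of other cells, the 6 inner root sheath markers stood at 2188 CPM in control against 422 CPM in TP in DPC-like cells and the 5 cycling markers at 758 CPM in control against 171 CPM in TP. The 8 DF markers stood at 377 CPM in control against 340.5 CPM in TP, and the 5 dermal sheath cup markers at 2299 and 3344 CPM, with none of these lists at 0, and their part in these differences was not tested. The class also held DPC3 (581 control and 37 TP cells), whose second-highest score was for hair matrix markers. DPC5 (375 and 79 cells) had Krt35 and Krt71 among its leading genes.

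In dermal sheath cup-like cells 2 of 17 chains were higher in TP (Col13a1 and Col14a1), against 3.93% of genes, and 2 were lower (Col12a1 and Col15a1), against 4.4%. Col14a1 stood at 32.1 CPM in control against 81.5 CPM in TP (16 and 121 UMIs), and its values by subcluster are not given here. Col12a1 stood at 397 CPM in control against 196 CPM in TP (198 and 291 UMIs) and Col15a1 at 385 CPM in control against 193 CPM in TP (192 and 286 UMIs). This class joined subclusters that changed in share. DSC1, led by the contractile gene Acta2, had 138 control and 126 TP cells, and DSC0, led by Gpc5 and Igfbp3, had 54 and 300. On their own, DSC0 scored highest for DPC markers and DSC1 for DF markers. Within DSC1, Col12a1 stood at 462 CPM in control against 412 CPM in TP (187 and 287 UMIs) and Col15a1 at 440.1 CPM in control against 390.4 CPM in TP (178 and 272 UMIs), both with less than a 2-fold difference. Col13a1 lay in DSC0, at 95.5 CPM in control against 132 CPM in TP (9 and 104 UMIs), and had 1 UMI in control and 2 in TP in DSC1. In DSC1 the type VI chains were higher in TP, Col6a1 at 499 CPM in control against 1058 CPM in TP (202 and 737 UMIs), Col6a2 at 349 CPM in control against 907 CPM in TP (141 and 632 UMIs) and Col6a3 at 1048 CPM in control against 1479.7 CPM in TP (424 and 1031 UMIs), and the reference chain Col1a1 was at 2915 CPM in control against 7281 CPM in TP. The TP levels of Col6a1 and Col6a2 in DSC1 lay above those of the DF-like class in TP (789 and 613 CPM). In the dermal sheath cup-like class the 8 DPC markers stood at 2434 CPM in control against 1566 CPM in TP, the 8 DF markers at 788 CPM in control against 1062 CPM in TP, with Lum at 0 in control, the 6 suprabasal IFE markers at 2055 CPM in control against 3885 CPM in TP and the 6 inner root sheath markers at 2284 CPM in control against 541 CPM in TP. The part of these markers in the differences was not tested.

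Outside the mesenchyme Col12a1 differed most in melanocyte-like cells, the pigment cells of the follicle. It stood there at 27.7 CPM (95% interval 18.8 to 39.3) in control against 311 CPM (279.6 to 345) in TP, from 31 and 354 UMIs, a ratio of 11.2 (7.78 to 16.8). The UMIs were spread over 124 of 194 TP cells, with at most 9 in a cell, against 23 of 445 control cells. Thinned to 1000 UMIs, 2.64% of 379 control cells and 36.3% of 171 TP cells had a Col12a1 UMI, against 0.169% and 0.110% of inner root sheath-like cells. Among the ranked classes, Col12a1 was thus highest in melanocyte-like cells of TP and in dermal sheath cup-like cells of control. The subcluster DSC1 of the dermal sheath cup-like class, with its values given above, stood higher than the melanocyte-like class in both libraries. In this class 1 of 7 chains was higher, against 5.53% of genes, and 1 was lower (Col23a1, 42.8 CPM in control against 15.8 CPM in TP), against 10.6%. Marker sums of other cells in the melanocyte-like class were 180.3 CPM in control against 361 CPM in TP for the 5 dermal sheath cup markers, of which Itga8 was at 0 in TP, and 328 and 348 CPM for the 8 DF markers. The 6 inner root sheath markers stood there at 3448 CPM in control against 355 CPM in TP, the 8 DPC markers at 272 CPM in control against 74.7 CPM in TP, the 5 Schwann markers at 149 CPM in control against 288 CPM in TP and the 5 basal IFE markers at 3010.2 CPM in control against 1913 CPM in TP. Their part in the difference was not tested. The 5 melanocyte markers themselves stood at 23299 and 28894 CPM.

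**Figure D5:**
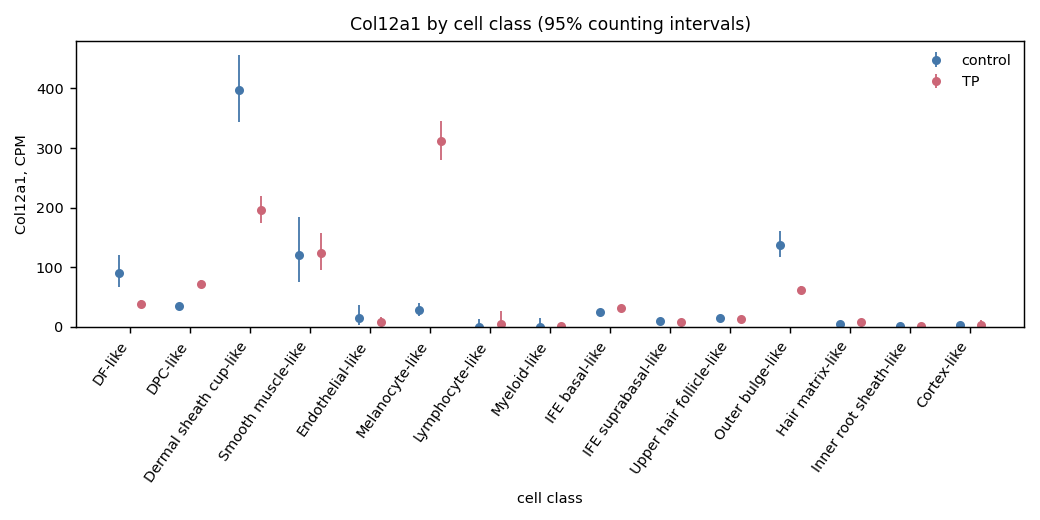
Level of Col12a1 (y axis, CPM) in each named class with at least 50 cells per library (x axis), in control (blue) and TP (red), with 95% counting intervals. The TP point lies below the control point in DF-like, dermal sheath cup-like and outer bulge-like cells and above it in DPC-like and melanocyte-like cells, where it reaches 311 CPM.

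In smooth muscle-like cells 3 of 10 chains were higher in TP (Col3a1, Col6a1 and Col6a2), against 5.38% of genes, and 0 were lower, against 3.54%. Col6a1 stood at 17.2 CPM in control against 118 CPM in TP (3 and 63 UMIs) and Col6a2 at 11.5 CPM in control against 116 CPM in TP (2 and 62 UMIs), ratios of 6.88 (2.25 to 34.2) and 10.2 (2.69 to 85.7), so that the control levels rested on few molecules in 62 cells. Col6a3 stood at 166 CPM in control against 249.7 CPM in TP (29 and 133 UMIs), within 2-fold. The 8 DF markers stood at 413 CPM in control against 682 CPM in TP in smooth muscle-like cells, with Dpt, Pi16 and Pdgfra at 0 in control. The 8 myeloid markers were all at 0 in control and at 253 CPM in TP, and the 6 inner root sheath markers stood at 2500.1 CPM in control against 468 CPM in TP. The part of these markers in the differences was not tested. In endothelial-like cells, which line vessels, 1 of 7 chains was higher, against 4.67% of genes, and 0 were lower, against 3.76%. The higher one was Col23a1, at 98.1 CPM in control against 217 CPM in TP (28 and 147 UMIs), a ratio of 2.21 (1.47 to 3.44). Without the cell with the most UMIs it stood at 73.6 and 198 CPM. Col15a1 and Col18a1 stood at 175 CPM in control against 152 CPM in TP and at 84.1 CPM in control against 143 CPM in TP in these cells. The 8 myeloid markers were at 21.0 CPM in control against 137 CPM in TP, the 6 suprabasal IFE markers at 2879.9 CPM in control against 4663 CPM in TP, the 8 DPC markers at 701 CPM in control against 152 CPM in TP and the 6 inner root sheath markers at 3339 CPM in control against 594 CPM in TP in endothelial-like cells, and their part was not tested.

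Among the epithelial classes, outer bulge-like cells, which hold stem cells of the follicle, had 8 chains with a difference. Of 17 tested 6 were higher in TP, against 2.85% of genes, and 2 were lower, against 3.84%. The higher ones were the reference chains, Col6a2, Col14a1 and Col27a1. Col6a2 stood at 3.30 CPM in control against 9.14 CPM in TP (4 and 55 UMIs), a ratio of 2.77 (1.02 to 10.5). Col14a1 stood at 14.9 CPM in control against 76.2 CPM in TP (18 and 459 UMIs), a ratio of 5.13 (3.21 to 8.73), and Col27a1 at 4.95 CPM in control against 41.5 CPM in TP (6 and 250 UMIs), a ratio of 8.38 (3.80 to 23.1). Their TP UMIs came from 146 and 123 of 1341 cells, and thinned to 1000 UMIs 1.30% of 462 control cells and 5.37% of 1230 TP cells had a Col14a1 UMI (2.13% and 10.9% before thinning). The free RNA of DF-like cells, scaled in the same way on Col3a1, would give at most 7.68 of the 459 Col14a1 UMIs and 0.201 of the 250 Col27a1 UMIs in TP, and its part in these counts was not tested. Lower were Col12a1, at 138 CPM in control against 61.8 CPM in TP (167 and 372 UMIs), and Col16a1, at 96.6 CPM in control against 38.0 CPM in TP (117 and 229 UMIs). Col18a1 stood at 260.1 CPM in control against 139.7 CPM in TP (315 and 841 UMIs) there, a ratio of 0.537 (0.471 to 0.613) that did not reach 2-fold. Col28a1, below 50 UMIs in this class, had 0 UMIs in control and 40 in TP, where 3 control UMIs, the limit that a count of 0 allows, would be 2.48 CPM against 6.64 CPM in TP. Of the markers of other cells in outer bulge-like cells, the 6 inner root sheath markers stood at 2789 CPM in control against 484 CPM in TP, the 5 dermal sheath cup markers at 104 CPM in control against 41.5 CPM in TP, the 7 smooth muscle markers at 146 CPM in control against 71.6 CPM in TP and the 5 upper hair follicle markers at 1651 CPM in control against 3028 CPM in TP. The 8 DF markers were at 287 CPM in control against 306 CPM in TP. The 8 DPC markers were at 148 CPM in control against 69.8 CPM in TP, and the 8 myeloid markers at 7.43 CPM in control against 23.4 CPM in TP (9 and 141 UMIs). The part of these markers was not tested.

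Hair matrix-like cells, the dividing cells of the hair bulb, had 6 of 10 chains higher in TP, against 1.99% of genes, and 0 lower, against 2.35%. Col27a1 stood at 3.50 CPM in control against 27.7 CPM in TP (21 and 62 UMIs), Col25a1 at 18.5 CPM in control against 37.0 CPM in TP (111 and 83 UMIs) and Col14a1 at 7.83 CPM in control against 21.0 CPM in TP (47 and 47 UMIs), and the 3 reference chains made up the rest. Without the cell with the most UMIs in each library Col25a1 was at 17.7 and 33.9 CPM there, within 2-fold. In basal IFE-like cells 3 of 15 chains were higher, the reference chains only, against 1.42% of genes, and 1 was lower (Col15a1, 6.18 CPM in control against 2.49 CPM in TP), against 3.21%. Col23a1, which anchors in the membrane of basal keratinocytes, stood at 215 CPM in control against 369 CPM in TP (1533 and 5474 UMIs) in basal IFE-like cells, a ratio of 1.71 (1.62 to 1.81), Col18a1 at a ratio of 1.51 (1.34 to 1.70) and Col16a1 at 0.822 (0.730 to 0.927). In suprabasal IFE-like cells 4 of 15 chains were higher (the reference chains and Col6a2), against 2.01%, and 3 were lower (Col6a3, Col15a1 and Col16a1), against 11.4%. Col16a1 stood at 16.8 CPM in control against 7.55 CPM in TP (277 and 376 UMIs) in this class. Without the cell with the most UMIs in each library Col6a3 was at 3.71 and 1.87 CPM and Col15a1 at 4.98 and 2.51 CPM, both then within 2-fold.

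The reference chains were at least 2-fold higher in TP in all 6 of the larger keratinocyte-like classes (basal and suprabasal IFE, upper hair follicle, outer bulge, hair matrix and inner root sheath), between 8.39 and 20.3 CPM of Col1a1 in control and between 42.9 and 81.2 CPM in TP. In upper hair follicle-like cells 3 of 9 chains tested were higher, the reference chains only, against 1.87% of genes, and 0 were lower, against 3.58%. In inner root sheath-like cells 3 of 12 were higher, again the reference chains, against 2.48%, and 1 was lower (Col18a1, 20.5 CPM in control against 9.33 CPM in TP), against 4.82%. In myeloid-like cells all 3 chains tested, again the reference chains, were higher, against 5.96% of genes higher and 8.02% lower. In cortex-like cells the 2 tested, Col1a2 and Col3a1, were higher, against 2.36% higher and 4.27% lower. The Col1a1 count was 0.660 to 1.00 times, and the Col1a2 count 0.679 to 0.896 times, what the Col3a1 count of the class and the DF-like ratio of the same library give in TP. By the same rule Col23a1, Col18a1 and Col16a1 would have 1.32, 1.99 and 3.95 TP UMIs in basal IFE-like cells, where 5474, 1161 and 756 were counted. The part of free RNA in the levels of the keratinocyte-like classes was not tested.

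Genes that fold, cross-link, cleave or bind collagen were followed as a list of 41. In all cells 6 of 40 tested passed 2-fold upwards in TP and 0 downwards, against 8.5% and 10.6% of all genes, with a median log2 ratio of 0.29 against -0.23 over all genes. They were the chaperone Serpinh1, the lysyl oxidase Lox, the procollagen proteinase Adamts2, the collagen-degrading protease Ctsk, P3h4 and Pcolce2, an enhancer of procollagen processing. Pcolce2, Lox and Adamts2 had ratios of 9.72, 4.88 and 2.01 over all cells and of 1.71, 1.64 and 1.32 within DF-like cells. DF-like cells held 87.5%, 91.5% and 69.0% of their TP UMIs. Serpinh1 and Ctsk passed 2-fold within DF-like cells too. The part of the shares of cells in the values over all cells was not tested. In DF-like cells 4 of 35 were higher (Serpinh1, Colgalt1, Loxl4 and Ctsk), against 3.12% of genes, and 2 lower (P3h2 and Ddr1), against 11.2%. Loxl4, a lysyl oxidase, had 1 control UMI against 78 TP UMIs, a CPM ratio of 8.19 (1.43 to 328). Serpinh1, needed to fold the triple helix, stood at 363 CPM in control against 1007 CPM in TP, and Ctsk at 508 CPM in control against 1513 CPM in TP, ratios of 2.78 and 2.98. No values by subcluster are given for these genes. The shallow DF1 held 77 control and 128 TP cells and DF6 held 32 and 14, and the part of these shares was not tested. In DPC-like cells 0 of 36 were higher, against 3.79% of genes, and 5 lower, against 8.49%. The lower ones were the collagen-binding integrins Itga1, Itga2 and Itga11, Adamts14 and Lox. Itga1 stood at 229 CPM in control against 109 CPM in TP and Lox at 17.7 CPM in control against 1.95 CPM in TP. The free RNA of DF-like cells, scaled as if all Col3a1 of the DPC-like cells came from it, would give at most 186 of the 205 control UMIs of Lox and at most 103 UMIs in TP, where 16 were counted. For Itga11 that upper limit was 43.8 UMIs in control and 10.1 in TP, where 43 and 11 were counted. The limit lay far above the count for Pcolce2, at 260.3 and 151 UMIs where 9 and 12 were counted, and the part of free RNA in Lox and Itga11 was not tested. In dermal sheath cup-like cells 2 of 27 were higher (P4ha2 and Lox), against 3.93% of genes, and 3 lower (Loxl1, Itga11 and Ctsk), against 4.4%. Lox rested there on 7 control and 73 TP UMIs, and P4ha2 on 7 and 53.

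In the other classes between 3 and 30 of these genes had at least 50 UMIs. In melanocyte-like cells 3 of 14 were higher (Serpinh1, Colgalt1 and Pcolce2) and 2 lower (P4ha1 and Plod2), against 5.53% and 10.6% of genes, and Serpinh1 was at 42.8 and 167 CPM in control and TP. In outer bulge-like cells 3 of 23 were higher (Plod1, Serpinh1 and Adamts2) and 2 lower (Bmp1 and Itga1), against 2.85% and 3.84%. In suprabasal IFE-like cells 0 of 30 were higher and 6 lower, the lysyl hydroxylases Plod1, Plod2 and Plod3 with P3h3, Adamts14 and Itga10, against 2.01% and 11.4%. Upper hair follicle-like cells had 3 of 18 higher (P4ha2, P3h4 and the collagen receptor Ddr2), against 1.87%, and smooth muscle-like cells 2 of 11 (Pcolce and Ddr2), against 5.38%. Serpinh1 was the one higher of 10 in endothelial-like and of 18 in hair matrix-like cells, Ddr2 of 26 in basal IFE-like and Itgb1 of 3 in lymphocyte-like cells, where 4.67%, 1.99%, 1.42% and 5.13% of genes were higher. None of the list was lower in these classes, against 3.76%, 2.35%, 3.21% and 2.27% of genes. In inner root sheath-like cells 1 of 20 was higher (Ctsk) and 2 lower (Plod2 and Mrc2), against 2.48% and 4.82%. In myeloid-like cells 0 of 8 differed, against 5.96% of genes higher and 8.02% lower, and in cortex-like cells 0 of 7, against 2.36% and 4.27%.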

How the data were processed

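The deposited values are UMI counts per gene and cell barcode, whole numbers that the authors made with Cell Ranger 8.0.1 on mm10 from 3′ droplet libraries and deposited after barcode calling, with no gene or mitochondrial filter. Whether intron reads were counted is not given in the sources used here. Barcodes outside 200 to 8000 genes or over 10% mitochondrial counts were dropped, as were the 7.5% that most resembled simulated doublets (3168 control, 1503 TP, median 5469 and 15006 UMIs). Seurat 5.3.0 integrated both libraries by reciprocal PCA (2000 variable genes without the collagens and their enzymes, 30 components) and clustered at resolution 1, with subclusters at 0.3 (immune 0.6). A cluster was named from marker lists with a score of at least 1.25. The names were rebuilt and are not the authors' annotation. UMIs were summed per class and scaled to CPM, and a gene with at least 50 UMIs was called at a 2-fold difference with 1 UMI added. Intervals are exact Poisson, Clopper-Pearson and conditional binomial, at 95%, and cover counting error only. A count of 0 allows 3 counts. Shares of cells were taken after thinning to 1000 UMIs per cell, without the 5362 control and 891 TP cells that were shallower. edgeR 4.0.16 gave TMM factors only. The scripts for the calls and intervals were tested on simulated data. The members and lists were chosen with earlier results of these data known. The rule named all chains and, by class, the chains, enzymes and receptors that were called and the 5 highest, of which those not called are not all listed. Alternatives are given in the closing section.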

Additional observations from a re-analysis of the deposited data

Results flagged for a closer look

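Between cell classes of the same libraries, some chains differed in opposite directions. Col6a5 was 3.48-fold in TP over control in DF-like cells and 0.256-fold in DPC-like cells. Col12a1 was 2.08-fold in DPC-like cells and 11.2-fold in melanocyte-like cells, and 0.429-fold in DF-like, 0.493-fold in dermal sheath cup-like and 0.448-fold in outer bulge-like cells. Within DSC1, which held most of its UMIs in dermal sheath cup-like cells, Col12a1 differed by less than 2-fold. Its call in DF-like cells missed the 2-fold limit under several alternatives given above. Col23a1 was 2.21-fold in endothelial-like cells and 0.369-fold in melanocyte-like cells. Each difference between classes rests on 1 library per group and was not tested.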

How the results depend on the processing

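Of 774 values of single chains under the alternatives, 470 moved by less than their counting error, 303 moved by more and 1 was classed as reversed. The reversed one was Col6a6 over all cells with clusters at their control shares (-0.56). That label does not cover every change of sign. The TMM factor over all cells, 0.840, also took ratios just under 1, such as 0.947 for Col23a1, past 1. Counts of chains follow as called of tested, with those of all genes in parentheses. Over all cells the higher chains were 10 of 32 (1491 of 17546 genes), and became 6 of 32 (304 of 17546 genes) with log2 of counts per 10000 plus 0.1 and 2 of 32 (582 of 17546 genes) with clusters at their control shares. The lower chains were 5 of 32 (1856 of 17546 genes), and became 3 of 32 (1073 of 17546 genes) with TMM, 3 of 28 (1026 of 14800 genes) after thinning, 2 of 32 (546 of 17546 genes) with clusters at their control shares, 0 of 32 (147 of 17546 genes) with that pseudocount and 0 of 32 (554 of 17546 genes) as the mean over cells of ln(counts per 10000 + 1). In DF-like cells TMM gave 5 of 19 (725 of 9258 genes) higher chains instead of 1 of 19 (289 of 9258 genes). The lower count there was 1 of 19 (1035 of 9258 genes) and became 5 of 24 (2544 of 12839 genes) with a minimum of 10 UMIs, 2 of 20 (1059 of 9397 genes) at resolution 0.5, 2 of 20 (1114 of 9423 genes) in the whole cluster, 0 of 19 (384 of 9258 genes) with TMM, 0 of 19 (245 of 9258 genes) with the ln mean, 0 of 19 (901 of 9036 genes) with 5% mitochondrial counts, 0 of 14 (204 of 2973 genes) after thinning and 0 of 19 (487 of 9258 genes) with subclusters at their control shares. In DPC-like cells the higher chains were 5 of 27 (486 of 12821 genes), and became 2 of 27 (384 of 12821 genes) with subclusters at their control shares and 3 of 27 (424 of 12687 genes) without DPC6, and the lower chains were 4 of 27 (1089 of 12821 genes) and became 2 of 27 (300 of 12821 genes) with the pseudocount. Chains with at least a 2-fold higher share of cells in TP numbered 1 (10.7%) of 19 in DF-like cells, beside the percent of all genes in parentheses, 3 (44.9%) unthinned and 0 (7.99%) at 2000 UMIs, and 5 (4.71%), 8 (30.8%) and 3 (3.37%) of 27 in DPC-like cells, whose median depths were 2428 and 5112 UMIs. The cause of these shifts was not tested. The subcluster-weighted values, those without DF1 and DF6 and those without DPC6 were chosen after seeing the data. Doublets were kept as an alternative only over all cells, since they were not clustered. No paired analysis was possible because there is 1 library per group. In DF-like cells, chains under 50 UMIs over both libraries could not be compared, and the control side held 199 cells.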

Other observations

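A cluster that stayed unnamed, led by histone genes and Stmn1 (1947 control and 1282 TP cells), held 15 Col27a1 UMIs in control and 287 in TP (1.50 and 20.3 CPM). Col14a1 had 45 and 517 UMIs there (4.49 and 36.5 CPM), and Col25a1 54 and 177 (5.39 and 12.5 CPM). It held 3.42% of the Col27a1 UMIs of the control library and 26.2% of those of the TP library, and outer bulge-like cells held 1.37% and 22.8%. DPC-like cells held the most Col27a1 UMIs of the control library, 43.1%. In TP the DPC-like clusters led by Adgrb3 and by Ndnf held 14.4% and 2.56%. All unnamed clusters together held 9.13% of the control and 4.20% of the TP UMIs of the 33 chains.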
